A study of Zea mays with 12 samples.

Results

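A total of 174 genes of the maize inbred line B104 were higher in the ear leaf and lower in the kernel under drought stress, and they are described here across 3 organs. They were chosen by the RNA-seq counts of the ear leaf and the kernel themselves. The unit is CPM, the expected count of a gene divided by the library's sum and multiplied by 1000000. In the ear leaf, the lower drought library had to hold at least 5 CPM and at least 2 times the CPM of the higher control library. In the kernel, the lower control library had to hold at least 5 CPM and at least 2 times the CPM of the higher drought library. Of 34423 genes listed in any library, 2399 met the ear leaf side of the rule, 3451 met the kernel side and 174 met both. All of them were among the 26089 genes with enough counts to be tested, of which these are 9.2%, 13.2% and 0.667%. The 174 made up 7.25% of the genes of the ear leaf side and 5.04% of those of the kernel side. For comparison, 733 genes were higher under drought in both organs by the same limits, 227 were lower in both, and 96 were lower in the ear leaf and higher in the kernel. Because the ear leaf and kernel values selected the genes, they are given below as a description with no test, and only the ear was tested.

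Drought-stressed plants were kept for several days at a low soil water content, and control plants were watered. Ears were collected at V9, when 9 leaves have a collar, and ear leaves and kernels at 5 days after pollination (5DAP), from a separate drought treatment begun around pollination. There were 2 libraries for each of the 6 combinations of organ and treatment, each made from several pooled plants, so that the spread between single plants is not known and p-values measure the spread between these libraries. All plants belonged to 1 inbred line and no gene was altered.

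The ear leaf stands beside the ear and is a main source of sugars for it, whereas the young kernel is a sink in which cells divide, enlarge and build new walls soon after pollination. The ear at V9 is a younger sink, in which spikelets are being laid down by dividing cells. Drought stress closes stomata through abscisic acid, lowers photosynthesis in leaves and slows cell division and expansion in growing organs. Genes for wall extension, chromatin, protein folding in the endoplasmic reticulum (ER), cuticle wax and central carbon metabolism are used in all 3 organs, though not to the same extent.

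Rounded expected counts summed to 3429219 in control ear leaf replicate 2 and to between 5117208 and 5452598 in the other 11 libraries. Replicates of the control ear leaf and the control kernel differed more than the others, with a mean chi-square per gene of 3.98 and 3.04 against 1.27 to 1.37 in the other 4 groups. The 5 photosynthesis genes used as ear leaf markers summed to 9664 and 9587 CPM in drought ear leaves, against 42290 and 41886 CPM in control ear leaves, and to at most 268 CPM in the other organs. As CPM are shares of a library, the rule was also applied after TMM scaling, which assumes that most genes do not change. It moved the median log2 ratio of all tested genes to -0.06 in the ear leaf, against 0.28 with plain CPM, and to -0.01 in the kernel, against -0.21. With TMM-scaled CPM the rule gave 89 genes, of which 80 were among the 174. The part of the fall in photosynthesis transcripts in the ear leaf values was not tested beyond this. TMM factors changed the ratios between drought and control libraries by less than the 2-fold gap that the rule required. In all 174 genes the drought ear leaf libraries therefore had to stay above the control libraries on that scale. The drought kernel libraries likewise had to stay below, and nothing further is read from this. The 6 ear meristem markers whose names were found in the reference summed to 410.0 and 412 CPM in drought ears, against 499 and 517 CPM in control ears, and to at most 136 CPM elsewhere. Of the 4 endosperm markers found, MEG1 and BETL2, which belong to the basal transfer layer, had at most 3.89 CPM in any library. SH1, a sucrose synthase, was also abundant in drought ear leaves and in ears. In control ears SH1 had 775 and 758 CPM, more than in control kernels, so the sum of the 4 does not mark the kernel in watered plants. The 4 summed to 1834 and 1812 CPM in drought kernels, against 561 and 583 CPM in control kernels. INCW2, a cell wall invertase, was the one that set the kernel apart, with 18.1 and 14.5 CPM in drought kernels, against 94.8 and 79.7 CPM in control kernels, and at most 1.35 CPM in any ear or ear leaf library. INCW2 lay on the same side as the selected genes in the kernel, whereas SH1, BETL2 and MEG1 lay on the other side. SH1 had 1811 and 1793 CPM in drought kernels, against 465 and 503 CPM in control kernels, and made up most of the sum. The markers thus give no common direction for the endosperm, and their part in the values of the selected genes was not tested. In bulk samples, fewer cells of a type and less RNA per cell cannot be told apart.

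The 174 genes together took 1.17% and 1.18% of all counts in drought ear leaves, against 0.336% and 0.338% in control ear leaves. In the kernel they took 0.549% and 0.545% under drought, against 2.06% and 1.99% in controls. In the ear they took 0.983% and 0.997% under drought, against 1.29% and 1.31% in controls. The 3 linker histones among them, summed apart after their values were seen, took 0.202% and 0.210% in drought ears, against 0.449% and 0.463% in control ears, and the other genes took 0.7805% and 0.7865%, against 0.8446% and 0.8474%. The median log2 ratio of drought to control mean CPM was 1.69 for ear leaves and -1.77 for kernels. The corresponding fold in the ear leaf ranged from 2.05 to 29.0 (median 3.24), and the fold of control over drought in the kernel from 2.03 to 45.2 (median 3.42). In 18 genes the libraries nearest to each other still differed at least 4-fold in both organs. Just inside the limits, GRMZM2G085970 reached 2.002 times in the ear leaf and GRMZM2G032694 reached 2.003 times in the kernel. Just outside, GRMZM2G060872 reached 1.995 times in the ear leaf and GRMZM2G156785 reached 1.996 times in the kernel, so membership near the limits turned on very small differences. At the level limits, GRMZM2G010452 was inside with 5.02 CPM and GRMZM2G081529 outside with 4.95 CPM in the lower drought ear leaf library, and GRMZM2G031317 was inside with 5.14 CPM and GRMZM2G063223 outside with 4.91 CPM in the lower control kernel library.

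**Figure D1:**
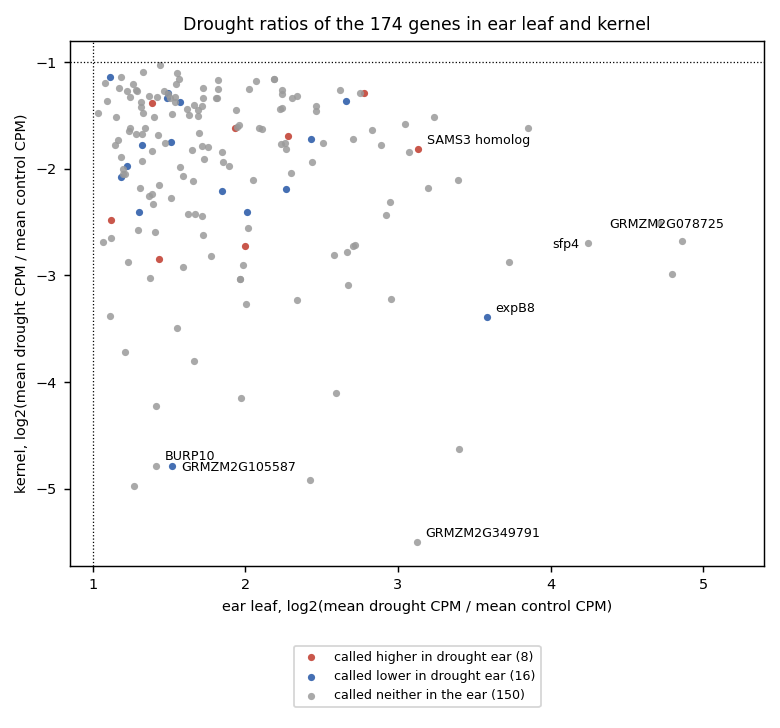
Each point is 1 of the 174 genes. The horizontal axis is the log2 ratio of drought to control mean CPM in the ear leaf and the vertical axis the same ratio in the kernel, with dotted lines at a 2-fold difference and colours for the ear test. Most genes lie near the limits that selected them, and the 8 genes called higher and 16 called lower in the drought ear are spread among the other 150.

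Between the ear leaf and the kernel, the order of the levels was tied to the values that selected the genes. Under drought stress 62 of the 174 genes had a higher mean CPM in kernels than in ear leaves, against 165 in control plants, and 103 genes had opposite orders under the 2 treatments. PIN10a (GRMZM2G126260), an auxin efflux carrier, shows this. It had 38.9 and 39.1 CPM in drought ear leaves, against 3.85 and 4.67 CPM in control ear leaves, and 14.6 and 15.5 CPM in drought kernels, against 70.6 and 65.4 CPM in control kernels. In the control ear, 138 genes had a mean of at least 5 CPM. The control ear mean was above the control kernel mean in 45 genes and below the control ear leaf mean in 38. These counts are also tied to the rule, which asked for high control kernel and low control ear leaf values. The shares over all genes tested were not computed, so nothing is read from them.

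The largest ear leaf folds belonged mostly to genes whose identifiers carry no descriptive name. GRMZM2G078725 had 46.2 and 46.2 CPM in drought ear leaves, against 2.02 and 1.17 CPM in control ear leaves, and 27.4 and 30.4 CPM in drought kernels, against 177 and 192 CPM in control kernels. Its ear values were 145 and 134 CPM under drought, against 116 and 105 CPM in controls. The rule required that the ear leaf and kernel groups did not overlap. In the ear both drought libraries also lay above both controls, as in 38.5% of all genes tested. The ear difference was small (log2 fold change 0.25 ± 0.09 SE, edgeR adjusted p = 0.0245) and did not meet the criteria. The gene named sfp4 (GRMZM2G154211) had 54.6 and 48.0 CPM in drought ear leaves, against 2.20 and 3.21 CPM in control ear leaves, and 10.1 and 11.2 CPM in drought kernels, against 79.4 and 58.6 CPM in control kernels. GRMZM5G896560 had 35.0 and 32.5 CPM in drought ear leaves, against 1.47 and 3.21 CPM in control ear leaves. All these genes were near the bottom of the scale in control leaves and well above it under drought. GRMZM2G429842, with 16.3 and 13.3 CPM, and GRMZM5G883759, with 5.14 and 5.07 CPM in drought ear leaves, had at most 3 counts in each control ear leaf library, so no fold is given for them.

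The largest kernel folds were in GRMZM2G349791, with 1.94 and 0.775 CPM in drought kernels, against 58.3 and 64.7 CPM in control kernels. GRMZM2G325804 had 6.41 and 7.55 CPM in drought kernels, against 185 and 236 CPM in control kernels, and GRMZM2G105587 had 1.97 and 2.58 CPM, against 67.0 and 58.6 CPM. Transcripts of these genes were frequent in watered kernels and scarce under drought. BURP10 (GRMZM2G446170), whose best Arabidopsis hit is RD22, a gene known for induction by dehydration, had 9.82 and 10.2 CPM in drought kernels, against 294 and 257 CPM in control kernels. The same gene had 86.6 and 89.6 CPM in drought ear leaves, against 31.6 and 34.6 CPM in control ear leaves. A homolog of the nitrate transporter NRT1.5 (GRMZM2G044851) had 66.8 and 60.7 CPM in drought ear leaves, against 25.9 and 26.8 CPM in control ear leaves. In the kernel it had 0.389 and 0.194 CPM under drought, at or below the floor, against 8.19 and 10.1 CPM in controls.

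Per length, the most abundant transcripts differed by organ. In drought ear leaves BURP4 (GRMZM5G800586, also an RD22 hit) had the highest mean, 646 FPKM, followed by see2b (GRMZM2G093032), a senescence-named legumain protease, with 601 FPKM. In control kernels plt2 (GRMZM2G010868), annotated by name as a phospholipid transfer protein, had 551 FPKM and hon102 (GRMZM2G401308), a linker histone H1, had 518 FPKM. In control ears hon102 and hon110 (GRMZM2G164020), also a linker histone, led with 1758 and 978 FPKM. BURP4 had 1102 and 1099 CPM in drought ear leaves, against 333 and 335 CPM in control ear leaves, and see2b had 1207 and 1187 CPM, against 193 and 195 CPM. Both lay between 8.58 and 13.4 CPM in every ear library.

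For roles, 126 genes matched a synonym in the RefSeq annotation of Zm-B73-REFERENCE-NAM-5.0, 30 occurred in the annotated lists of the study, and 43 had neither. Word lists for 19 roles placed 22 of the 174 genes. They held 5 transcription regulators, a count that includes 2 linker histones through the wording of their annotation, 4 genes of the cell wall, 4 of sugar and starch, 3 of redox and detoxification, 2 transporters and 1 gene each of chaperones, brassinosteroid synthesis, chromatin and translation. The other 10 lists held 0 of the 174 by this word match, which reads the annotation text of few genes, so that members such as CER1, glossy2, PIN10a and the SAMS3 homolog lie outside the lists. Among these lists, the photosynthesis list had 1 gene on the ear leaf side and 9 on the kernel side of 81 tested. The abscisic acid list had 10 and 4 of 31, and the auxin list 13 and 18 of 55, with no gene on both sides by the word match. The study's own heading for auxin signaling in the kernel held 1 of the 174, GRMZM5G877500, which the word match put under sugar and starch. The list for cell cycle, chromatin and histones had 2 genes on the ear leaf side and 50 on the kernel side of 65 tested. Of the 65, 48 were called lower in the drought ear, against 3.29% of all genes tested, but many were listed by the study because they changed in these libraries. From names, 45 genes were put into 9 groups after their values were known. Of these, 2 were called higher and 11 lower in the drought ear, against 3.95% and 3.29% of all genes tested. The naming rule took in the largest ear rises and falls, so nothing is read from this count. As the text used for the lists came largely from tables that the study drew from these same libraries, their counts are not independent evidence of a direction.

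Among the named groups, 6 genes act in chromatin, replication or the spindle. Linker histones H1 bind the DNA between nucleosomes, histone H4 is part of the nucleosome core, pcna1 is the sliding clamp of DNA replication, and TUBG2 is a gamma-tubulin that nucleates microtubules. hon110 had 141 and 129 CPM in drought ear leaves, against 55.1 and 60.7 CPM in control ear leaves, and 95.0 and 90.8 CPM in drought kernels, against 404 and 327 CPM in control kernels. In the ear it had 489 and 508 CPM under drought, against 1509 and 1576 CPM in controls, a fall by 1.72 on the log2 scale (SE 0.08, edgeR adjusted p = 4.74e-16). The drought libraries thus lay above control in the leaf and below it in both sink organs. The linker histone his1 (GRMZM2G003002) had 85.0 and 91.8 CPM in drought ear leaves, against 29.4 and 33.3 CPM in control ear leaves, and 282 and 294 CPM in drought ears, against 788 and 802 CPM in control ears. A histone H4 gene (GRMZM2G349651) had 8.38 and 7.37 CPM in drought ear leaves, against 2.32 and 2.97 CPM in control ear leaves, and 22.2 and 23.9 CPM in drought ears, against 109 and 111 CPM in control ears. Its ear log2 fold change was -2.35 ± 0.12 (SE, edgeR adjusted p = 4.27e-15). pcna1 (GRMZM2G030523) also fell in the ear, with a log2 fold change of -1.02 ± 0.11, whereas hon102 (-0.89 ± 0.07) and TUBG2 (-0.79 ± 0.21) did not reach the fold criterion. Of the 6, 0 met the rule on the TMM scale. The study's heading for nucleosome assembly lists genes that it found changed in these same ear libraries, so their ear calls are not independent evidence. Under it, 30 genes were tested and all 30 were called lower in the drought ear, against 3.29% of all genes tested. Of these, 26 met the kernel side of the rule and 3 met the ear leaf side, which were hon110, his1 and the H4 gene. Histone genes have near-identical copies, so reads may have been divided between them.

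A group of 5 genes belongs to the cell wall. Beta-expansins loosen walls, cesa6 is a subunit of cellulose synthase, CSLD proteins make related glucans, and UDP-glucose 6-dehydrogenase supplies precursors of matrix polysaccharides. The beta-expansin expB8 (GRMZM2G013002) was the only one of the 45 named genes with at least 10-fold differences of mean CPM in both selecting organs. Between the nearest kernel libraries it differed 8.93-fold. It had 200 and 199 CPM in drought ear leaves, against 17.0 and 16.3 CPM in control ear leaves, and 35.0 and 38.6 CPM in drought kernels, against 428 and 345 CPM in control kernels. Ear libraries of expB8 had 95.2 and 79.4 CPM under drought, against 168 and 171 CPM in controls (log2 fold change -1.05 ± 0.10 SE, edgeR adjusted p = 3.45e-09), a fold just past the limit, and the call was lost without drought ear replicate 2 (-0.92), with library size as the only scaling (-0.96) and with limma (-0.90 and -0.91). expB2 (GRMZM2G021621) had 86.0 and 103 CPM in drought kernels, against 417 and 375 CPM in control kernels, but only 8.80 and 9.59 CPM in drought ear leaves, against 2.23 and 3.87 CPM in control ear leaves. The CSLD2 homolog (GRMZM2G122277) had 78.0 and 72.2 CPM in drought kernels, against 434 and 374 CPM in control kernels. In the ear it had 57.1 and 52.2 CPM under drought, against 35.0 and 29.2 CPM in controls, which is the opposite side from the kernel, but its log2 fold change of 0.67 was below the fold criterion. UDP-glucose 6-dehydrogenase (GRMZM5G862540) had an ear log2 fold change of 0.87 ± 0.09 and cesa6 (GRMZM2G113137) one of 0.37 ± 0.07, neither of which met it. On the word list for the cell wall, 52 genes were tested, of which 39 met the kernel side, 8 the ear leaf side and 4 both. In the ear, 6 of the 52 were called higher and 8 lower, including 1 of the 4 members, against 3.95% and 3.29% of all genes tested. With TMM-scaled CPM, 3 of the 5 genes of the group met the rule.

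Among genes of ER folding and secretion, the calreticulin homolog CRT1a (GRMZM2G074687), a calcium-binding chaperone of the ER, had 38.9 and 44.0 CPM in drought ear leaves, against 15.0 and 14.1 CPM in control ear leaves, and 44.5 and 46.5 CPM in drought kernels, against 143 and 163 CPM in control kernels. It fell in the ear, with 21.2 and 25.6 CPM under drought, against 54.4 and 50.0 CPM in controls (log2 fold change -1.25 ± 0.12 SE, edgeR adjusted p = 1.85e-09). A DnaJ-type protein with tetratricopeptide repeats (GRMZM2G031637) also fell in the ear, with 21.2 and 22.1 CPM, against 50.7 and 42.1 CPM in controls. The disulfide isomerases pdi2 (GRMZM2G163421) and pdi7 (GRMZM2G159369), which form disulfide bonds in secreted proteins, and copz2 (GRMZM2G314679), a coat subunit of transport vesicles, had ear log2 fold changes of -0.52, 0.00 and -0.41 and were not called. The call of the DnaJ gene was lost with limma on log2(FPKM + 1) and on log2(FPKM + 0.1), at -1.02 and -1.09 (adjusted p = 0.00136 and 0.00467). With TMM-scaled CPM, 2 of the 5 genes of this group met the rule.

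The group for cuticle, lipids and epidermis held 5 genes, of which 1 was called higher and 1 lower in the drought ear, against 3.95% and 3.29% of all genes tested. CER1 (GRMZM2G066578), named after the Arabidopsis gene for alkane synthesis in cuticular wax, had 275 and 280 CPM in drought ear leaves, against 78.9 and 70.6 CPM in control ear leaves, and 11.5 and 12.6 CPM in drought kernels, against 40.4 and 53.8 CPM in control kernels. glossy2 (GRMZM2G098239), another wax gene, had 22.0 and 19.9 CPM in drought kernels, against 240 and 197 CPM in control kernels. Their ear log2 fold changes were 0.48 ± 0.41 and 0.11 ± 0.13 (SE), neither called, and CER1 was scarce there. plt2 had 579 and 571 CPM in drought ear leaves, against 144 and 144 CPM in control ear leaves, and 98.0 and 94.4 CPM in drought kernels, against 667 and 607 CPM in control kernels. Ears had 12.1 and 15.0 CPM under drought, against 4.78 and 7.34 CPM in controls, a rise of 1.08 ± 0.20 on the log2 scale (edgeR adjusted p = 5.51e-05) at a level far below the other organs. The call was lost without drought ear replicate 2 (log2 fold change 0.92) or without control ear replicate 1 (0.79). ocl4 (GRMZM2G123140), a homeodomain regulator of the outer cell layer, had 148 and 153 CPM in drought ears, against 144 and 143 CPM in control ears.

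In hormone pathways, a homolog of BR6OX2 (GRMZM2G103773), an oxidase of late brassinosteroid synthesis, had 201 and 191 CPM in drought ear leaves, against 39.4 and 43.9 CPM in control ear leaves. In the kernel it had 4.86 and 5.16 CPM under drought, against 15.2 and 19.0 CPM in controls. DWF1 (GRMZM2G057000), which acts earlier in sterol and brassinosteroid synthesis, had 76.3 and 72.0 CPM in drought kernels, against 365 and 344 CPM in control kernels, and 300 and 315 CPM in drought ears, against 448 and 473 CPM in control ears. Neither passed both criteria in the ear, with log2 fold changes of -1.14 and -0.68. The SAMS3 homolog (GRMZM2G054123) encodes an S-adenosylmethionine synthetase, which makes the methyl donor that is also the precursor of ethylene. It had 230 and 254 CPM in drought ear leaves, against 27.7 and 27.6 CPM in control ear leaves, and 142 and 148 CPM in drought kernels, against 544 and 480 CPM in control kernels. It rose in the ear, with 209 and 218 CPM under drought, against 74.4 and 71.1 CPM in controls (log2 fold change 1.46 ± 0.09 SE, edgeR adjusted p = 1.22e-13). The ear therefore sided with the leaf for this gene. The gap between the groups in the ear leaf and the kernel was required by the rule, so only the ear difference is a result.

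**Figure D2:**
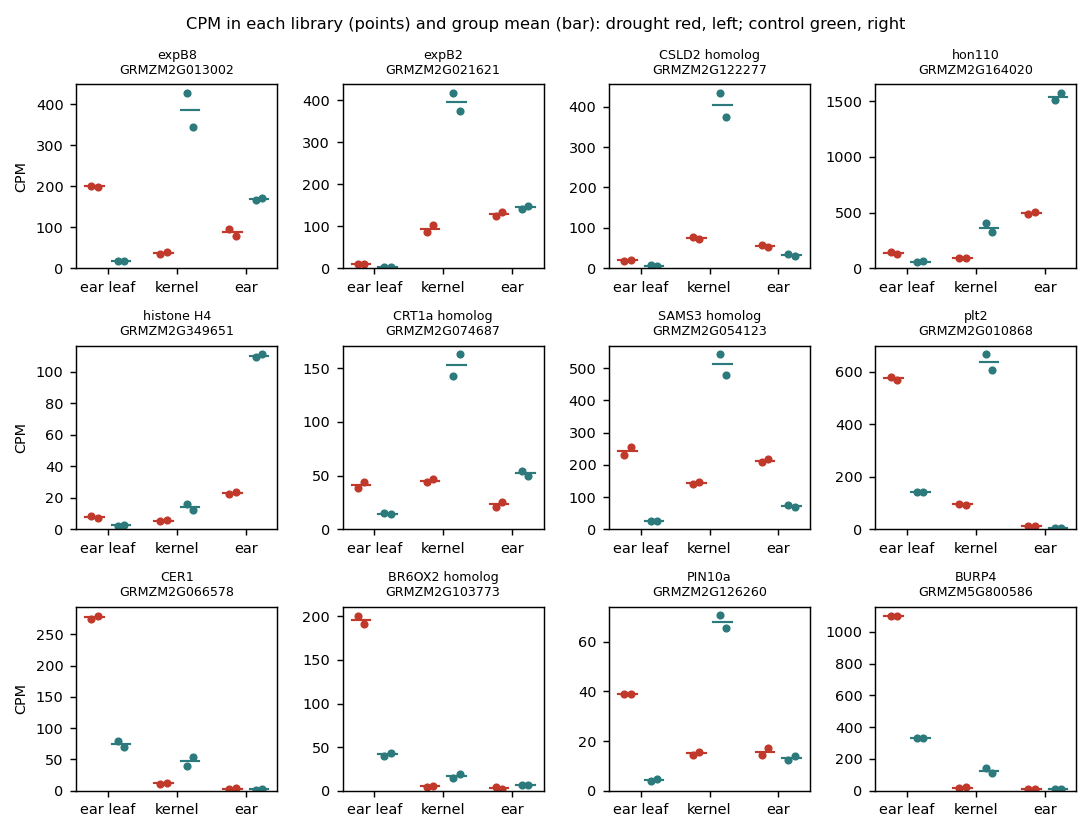
CPM of 12 named genes in each library (points) with the group mean (bar), by organ, with drought in red on the left and control in green on the right of each organ. The scale differs between panels. In every panel the ear leaf points are higher and the kernel points lower under drought, which the rule required, while the ear differs from gene to gene: the histones and CRT1a are lower, the SAMS3 homolog and plt2 are higher.

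A further 6 genes act in carbon metabolism. They include Agp2 (GRMZM2G106213), a subunit of ADP-glucose pyrophosphorylase in starch synthesis, pgd3 (GRMZM2G440208), a 6-phosphogluconate dehydrogenase of the pentose phosphate pathway, and homologs of triosephosphate isomerase, phosphoglycerate mutase, malate dehydrogenase and trehalose-phosphate phosphatase. Their ear leaf log2 ratios lay between 1.18 and 1.81, and their kernel log2 ratios between -2.42 and -1.21. Of the 6, only the triosephosphate isomerase homolog (GRMZM2G146206) was called in the ear, with 7.21 and 10.7 CPM under drought, against 19.5 and 19.5 CPM in controls (log2 fold change -1.21 ± 0.21 SE, edgeR adjusted p = 3.29e-05). Agp2 had 125 and 125 CPM in drought kernels, against 275 and 301 CPM in control kernels, and 21.1 and 18.0 CPM in drought ear leaves, against 5.51 and 7.87 CPM in control ear leaves. In the ear it was the reverse of the kernel, with 260 and 254 CPM under drought, against 181 and 193 CPM in controls, though below the fold criterion. The 3 translation genes, RPL10 (GRMZM2G087233), a ribosomal L1p/L10e homolog (GRMZM2G122290) and EF-Ts (GRMZM2G095534), had ear log2 fold changes between -0.74 and -0.36, none called. With TMM-scaled CPM, 1 of the 6 carbon genes and 1 of the 3 translation genes met the rule, and 19 of the 45 named genes did.

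The other called members of the named groups were thl1 (GRMZM2G085474), the VDAC1 homolog (GRMZM2G108144), a channel of the outer mitochondrial membrane, and a bHLH transcription factor (GRMZM5G828396). The bHLH gene had 17.8 and 23.3 CPM in drought ear leaves, against 3.30 and 5.25 CPM in control ear leaves, and 8.74 and 6.39 CPM in drought kernels, against 34.8 and 34.0 CPM in control kernels. In the ear it had 13.7 and 16.0 CPM under drought, against 30.4 and 32.8 CPM in controls, a fall by 1.18 on the log2 scale. thl1 and the VDAC1 homolog fell by 1.07 and 1.11. With limma on log2(FPKM + 1) and on log2(FPKM + 0.1), the calls of the bHLH gene (-0.97 and -1.04) and of the VDAC1 homolog (-0.94 and -1.003) were lost. Of 2 peroxidases, GRMZM2G144648 had 13.3 and 12.7 CPM in drought kernels, against 191 and 172 CPM in control kernels, and did not pass in the ear. ERD3 (GRMZM2G144155), named after an Arabidopsis gene found as early responsive to dehydration, had 25.4 and 19.9 CPM in drought kernels, against 183 and 157 CPM in control kernels.

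**Figure D3:**
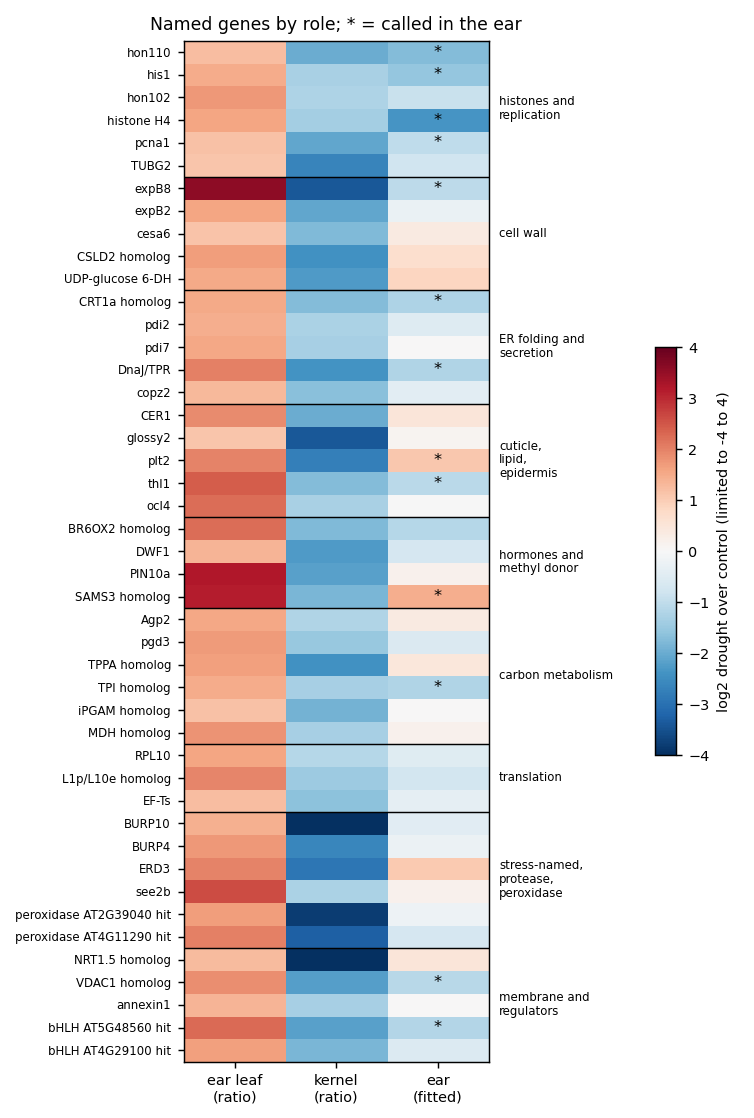
Log2 drought over control of 45 named genes in 9 groups, for the ear leaf and the kernel as the ratio of mean CPM and for the ear as the fitted fold change. Red is higher and blue lower under drought, the colours end at -4 and 4, and a star marks a call in the ear. The ear leaf and kernel columns have 1 colour each because of the rule. The ear column is blue for all 6 histone and replication genes and the 3 translation genes. In ER folding and secretion it is blue apart from pdi7, at 0.001, and it is of both colours elsewhere.

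In the ear, 8 of the 174 genes (4.60%) were called higher under drought, against 3.95% of the 26089 genes tested, and 16 (9.20%) were called lower, against 3.29% of the genes tested. A call required an edgeR adjusted p under 0.001 together with at least a 2-fold difference, which is 1 on the log2 scale. All 174 genes had passed the filter on low counts, which their ear leaf and kernel levels let them do. The other 150 genes were not called. The fitted log2 fold change was below 0 in 117 genes and above 0 in 56, with a median of -0.28, against -0.01 over all genes tested. Every drought ear library lay above both control libraries in 49 genes (28.2%, against 38.5% of all genes tested) and below both in 88 (50.6%, against 28.4%). At an adjusted p under 0.05 with no fold limit, 25 genes (14.4%, against 17.0% of all genes tested) were higher and 67 (38.5%, against 19.1%) lower. Genes of the kernel side alone, without the 174, were called lower in the ear in 429 of 3277 cases and higher in 40, and genes of the ear leaf side alone were called higher in 297 of 2225 cases and lower in 44. Of the 733 genes higher in both organs, 220 were called higher in the ear and 7 lower, of the 227 genes lower in both 7 were called higher and 18 lower, and of the 96 genes with the opposite pattern 20 were called higher and 0 lower. These shares are given as a description, and whether they differ was not tested.

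**Figure D4:**
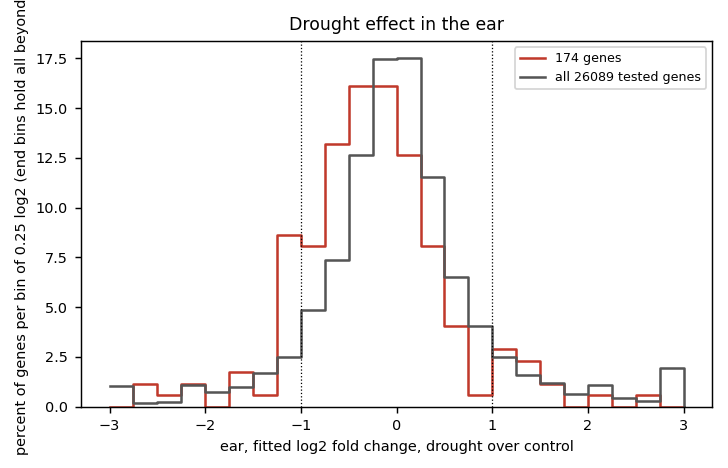
Percent of genes in each bin of 0.25 on the log2 scale of drought over control in the ear, for the 174 genes (red) and all 26089 genes tested (grey), with dotted lines at the fold criterion. The red outline is shifted to the left, with a median of -0.28 against -0.01, and the end bins hold all values beyond them.

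The 8 genes called higher in the ear were led by GRMZM5G874697, with 22.9 and 24.3 CPM in drought ears, against 3.29 and 3.83 CPM in control ears (log2 fold change 2.64 ± 0.25 SE, edgeR adjusted p = 1.59e-10). GRMZM2G330635 had 14.1 and 16.2 CPM in drought ears, against 3.21 and 3.07 CPM in control ears, and GRMZM2G059706 had 10.04 and 6.92 CPM, against 2.18 and 2.40 CPM. The call of GRMZM2G059706 was lost without drought ear replicate 1 or without either control ear replicate, at log2 fold changes of 1.42 to 1.79. The other 5 were the SAMS3 homolog, GRMZM2G067315, plt2, GRMZM2G151992 and GRMZM2G139786, with log2 fold changes from 1.04 to 1.46. The median control ear level of the 8 was 4.98 CPM, while their median was 259.5 CPM in control kernels. None was more abundant in the control ear than in the control kernel, an order in part tied to the rule, which set a floor for control kernels. GRMZM2G067315 had 816 and 810 CPM in drought ear leaves, against 118 and 120 CPM in control ear leaves, but only 11.5 and 10.7 CPM in drought ears, against 4.34 and 3.45 CPM in control ears. Some of the 8 calls were lost when control ear replicate 1 was left out.

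The 16 genes called lower in the ear had a median of 63.6 CPM in control ears and 52.8 CPM in control kernels, and 8 of them were more abundant in the control ear than in the control kernel. They were the H4 gene, hon110, his1, pcna1, expB8, the CRT1a homolog, the DnaJ gene, the triosephosphate isomerase homolog, the VDAC1 homolog, thl1, the bHLH gene GRMZM5G828396 and 5 genes with no descriptive name. Of these 5, GRMZM2G105587 had 21.4 and 18.8 CPM in drought ears, against 49.7 and 61.4 CPM in control ears, and GRMZM2G154460 had 8.52 and 8.20 CPM, against 23.3 and 20.1 CPM. The call of GRMZM2G154460 was lost with limma on log2(FPKM + 0.1), at -1.35. GRMZM2G023279, GRMZM2G480480 and GRMZM2G110201 had log2 fold changes of -1.22, -1.13 and -1.08. In all 16 the drought and control ear libraries did not overlap, which the criteria for a call nearly require with 2 libraries per group. Of all genes tested, 28.4% had every drought ear library below both control libraries. With limma on log2(FPKM + 1) or log2(FPKM + 0.1), 6 and 5 of the 16 were called, while the share of all genes called lower was then 1.91% and 0.878%. With library size as the only scaling, 12 of the selected genes were called lower and 9 higher. The shares of all genes called lower and higher were then 2.61% and 4.77%.

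There were 2 pairs of identifiers that carried the same values in all 12 libraries, GRMZM2G013115 with GRMZM2G128748, which match 1 RefSeq gene, and GRMZM2G049424 with GRMZM2G160763. The members of each pair cannot be counted as separate genes. GRMZM2G063024 had 0 counts in all 4 ear libraries, and 3 genes, this one included, had at most 3 counts in each of them, so that their ear values lie at or near the floor of 3 counts. A further 3 pairs of the genes lay 3 annotated genes apart in the reference.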

How the data were processed

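RNA of 12 libraries of the maize inbred line B104 was enriched with oligo(dT) and sequenced for the study. In the files the authors deposited, expected counts are estimates of the reads of each gene, unnormalized and with fractions. The deposited FPKM scale these estimates to gene length and mapped reads. The aligner, the counting program and the annotation are not given in the sources used here. A gene missing from a library's list was given 0.

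For the ear, expected counts were rounded, scaled with TMM and fitted with edgeR 4.0.16 (R 4.3.3) as 6 group means over 12 libraries. The filter filterByExpr left 26089 genes, over which the p-values of the quasi-likelihood F test received Benjamini-Hochberg adjustment. The criteria for a call (adjusted p under 0.001, 2-fold) are those of the study. The common biological coefficient of variation was 0.0624, and standard errors come from the model. Totals of 3429219 to 5452598 counts put the floor of 3 counts at 0.550 to 0.875 CPM. On simulated ear data with 26089 genes, 97 of 100 genes changed 4-fold and 91 of 100 changed 2.83-fold were recovered, with 4 false calls. The changed genes were drawn only from those above a minimum count in the control ear. Recovery of genes with fewer ear counts is therefore not known.

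The genes and role lists were chosen with earlier results of these data known. Genes were named for the 8 largest folds in each selecting organ and in both, the 6 largest ear rises and falls among calls, up to 3 per role list, the 6 highest levels in drought ear leaf and control kernel, and the limits of the rule. This named 53 of the 174, 0 of them from the Results of the study. Other called genes, and 16 of the 45 grouped genes, were named after their values were seen. Alternatives were DESeq2 1.42.0, limma 3.58.1 on FPKM, library size only, no filter, the ear alone, a replicate block, another p threshold, other limits of the rule and leaving out each library.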

Additional observations from a re-analysis of the deposited data

How the results depend on the processing

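The number of genes that met the rule depended on its limits and on the scaling. It was 89 with TMM-scaled CPM (80 of them among the 174), 627 at 1.5 times, 39 at 3 times and 290 with a floor of 1 CPM, against 174. Leaving out 1 ear leaf or kernel library gave 183 to 220 genes. These held all 174 by construction, because the rule compares the lowest with the highest library and leaving 1 out can only add genes. With TMM-scaled CPM the median log2 ratio of the 174 was 1.36 in the ear leaf, -1.57 in the kernel and -0.26 in the ear. Without 1 library it was 1.69 to 1.73 in the ear leaf, -1.81 to -1.74 in the kernel and -0.19 to -0.16 in the ear. In the ear, leaving out 1 library gave 5 to 7 genes called higher (5 without control ear replicate 1) and 14 to 17 called lower. An adjusted p under 0.05 with no fold limit gave 25 and 67, where 17.0% and 19.1% of all genes tested were then higher and lower. limma on log2(FPKM + 1) and on log2(FPKM + 0.1) gave 6 and 5 called lower. The replicate number as a block gave 8 and 16, as without it, and the correlation of replicate differences between drought and control was 0.0125 in the ear, so the numbers are not taken as pairs. Over the 53 named genes and the alternatives of the ear test, 560 values kept their status as called or not called, 16 calls were lost, 3 were gained and 0 changed direction. Most of the 53 were not called in the main fit, so most of the 560 are genes that stayed uncalled. The 16 losses fell on the smaller number of called genes. Depth limits the genes with few counts in the ear.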
